A study of Mus musculus with 40 samples.

Results

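The genes described here were the Toll-like receptors (TLRs) that bone-marrow-derived macrophages (BMDMs) use to sense microbes, together with the co-receptors for lipopolysaccharide (LPS). They were chosen by name: Tlr1, Tlr2, Tlr3, Tlr4, Tlr6, Tlr7, Tlr8, Tlr9, Cd14 and Ly96, which is 10 of the 43430 genes in the count table. All 10 were among the 11853 genes that passed the filter on low counts, and each had at least 10 counts in every one of the 40 libraries. The lowest was 95 counts, for Tlr3.

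RNA-seq was performed on BMDMs of 10 mice, 5 WT and 5 NDI1, and each mouse gave 4 libraries: untreated cells, cells with LPS, cells with piericidin A and cells with both agents. This makes 8 groups of 5 libraries. NDI1 is a yeast NADH dehydrogenase that passes electrons to ubiquinone and withstands piericidin A, which blocks complex I of the respiratory chain, so the design asks which effects of the inhibitor are seen when NADH can still be oxidized. NDI1 mice (labelled VAV-Cre NDI1) carried a lox-stop-lox NDI1 cassette in the Rosa26 locus and Vav-iCre, which acts in hematopoietic cells; WT mice carried Vav-iCre alone, so both groups had the Cre. Mice were littermates of the strain labelled C57/Bl6, of both sexes and 8 to 14 weeks old, and the cells grew in M-CSF at 20 ng/ml in medium with methyl pyruvate and uridine until harvest on day 6. LPS was an ultrapure preparation at 100 ng/ml for 4 h, and piericidin A was used at 500 nM, added 30 min before LPS where both were given. NDI1 mRNA was not analysed here, so the genotype rests on the labels. Totals lay between 6950748 and 13552070 counts per library. All 8 macrophage marker genes examined, among them Adgre1 and Csf1r, were detected in all 40 libraries, where Csf1r was never under 1828 CPM.

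In the mm10 coordinates of the deposited table Tlr4 lies at chr4:66827584-66930284 on the plus strand, Ly96 at chr1:16688051-16709611 on the plus strand and Cd14 at chr18:36725074-36726736 on the minus strand. Tlr2 lies at chr3:83836272-83841767, and Tlr1 (chr5:64924811-64932761) and Tlr6 (chr5:64953106-64960048) are neighbours, all on minus strands. Tlr3 lies at chr8:45395665-45410608, Tlr8 (chrX:167242696-167264329) and Tlr7 (chrX:167304929-167330558) are neighbours, all on minus strands, and Tlr9 lies at chr9:106222598-106226883 on the plus strand. All are protein-coding genes, and their values are counts over exons. Tlr1 and Tlr6 are close paralogs, so reads that fit both could have been left out of both. An exon of Tlr3 overlaps Gm45542, a gene on the opposite strand, and whether the counting used strand was not given in the sources used here, so the Tlr3 count is less certain.

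TLRs are membrane receptors with leucine-rich repeats that bind conserved microbial molecules and signal through a cytoplasmic TIR domain. At the cell surface TLR4 recognizes LPS with MD-2, the product of Ly96, after CD14 has handed over the LPS molecule, while TLR2 recognizes bacterial lipopeptides as a heterodimer with TLR1 or TLR6. In endosomes TLR3 senses double-stranded RNA, TLR7 and, in humans, TLR8 sense single-stranded RNA, and TLR9 senses unmethylated CpG DNA. The adaptor MyD88 serves all of them but TLR3, which uses TRIF, and TLR4 uses both adaptors. Macrophages are known to change the transcript levels of several TLRs after LPS.

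The stretch just before the start site is shown for the members that had an entry in the table of start sites, all of which had transcripts called for LPS or piericidin A, since motifs there are a property that the choice of genes did not use. RefSeq start sites of GRCm38.p6 gave windows of 300 bases, 250 before the start and 50 after it, for 6 of the 10 genes (Tlr1, Tlr2, Tlr3, Tlr6, Tlr8 and Tlr9; 8 windows). Tlr4, Tlr7, Cd14 and Ly96 had no entry. The windows were searched on both strands for the kappaB consensus, bound by NF-kappaB, for the ISRE core GAAANNGAA, bound by IRF and STAT complexes, for AP-1 (TGANTCA), PU.1 (GAGGAAGT) and C/EBP (TTNNGNAAT) motifs, and for the core TGATGNAA that ATF4 and CHOP can bind. Overlapping matches were all counted. Of 32851 windows in the table, 8.46% held the kappaB consensus, 8.56% the ISRE core, 7.81% the AP-1 motif, 3.2% the PU.1 motif, 11.5% the C/EBP motif and 3.97% the ATF4-CHOP core.

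The 250 bases before the start are written 5′ to 3′ on the strand of the gene, and capitals mark the bases of a motif match. They are chr5:64933559-64933808 and chr5:64932700-64932949 (Tlr1, minus strand, windows 1 and 2), chr3:83841609-83841858 (Tlr2, minus strand), chr8:45410381-45410630 (Tlr3, minus strand), chr5:64959167-64959416 and chr5:64960049-64960298 (Tlr6, minus strand, windows 1 and 2), chrX:167264330-167264579 (Tlr8, minus strand) and chr9:106222348-106222597 (Tlr9, plus strand), in GRCm38.p6. RefSeq start sites need not be those of the deposited gene models. Window 2 of Tlr6 and the windows of Tlr8 and Tlr9 end directly before the gene as deposited, while window 1 of Tlr6 lies inside it, at a start within the gene. The windows of Tlr2 and Tlr3 and window 2 of Tlr1 lie partly inside the deposited gene, and window 1 of Tlr1 lies before it.
Tlr1 window 1: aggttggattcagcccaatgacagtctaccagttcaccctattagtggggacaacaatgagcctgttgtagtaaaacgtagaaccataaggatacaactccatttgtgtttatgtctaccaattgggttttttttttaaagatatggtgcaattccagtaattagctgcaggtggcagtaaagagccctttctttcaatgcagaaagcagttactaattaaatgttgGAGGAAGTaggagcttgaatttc
Tlr1 window 2: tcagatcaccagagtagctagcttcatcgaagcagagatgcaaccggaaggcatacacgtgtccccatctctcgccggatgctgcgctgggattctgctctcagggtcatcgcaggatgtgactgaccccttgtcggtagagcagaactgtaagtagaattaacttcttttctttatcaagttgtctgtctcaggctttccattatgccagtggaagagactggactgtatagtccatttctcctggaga
Tlr2: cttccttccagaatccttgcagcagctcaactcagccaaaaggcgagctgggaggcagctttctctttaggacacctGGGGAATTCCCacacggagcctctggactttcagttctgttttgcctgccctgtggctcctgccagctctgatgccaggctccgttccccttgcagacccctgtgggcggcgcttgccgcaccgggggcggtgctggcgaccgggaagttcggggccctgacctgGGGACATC
Tlr3: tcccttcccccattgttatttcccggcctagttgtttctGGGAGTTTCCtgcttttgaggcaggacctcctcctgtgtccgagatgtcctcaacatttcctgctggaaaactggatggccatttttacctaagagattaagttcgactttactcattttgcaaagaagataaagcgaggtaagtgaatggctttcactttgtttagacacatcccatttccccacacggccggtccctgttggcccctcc
Tlr6 window 1: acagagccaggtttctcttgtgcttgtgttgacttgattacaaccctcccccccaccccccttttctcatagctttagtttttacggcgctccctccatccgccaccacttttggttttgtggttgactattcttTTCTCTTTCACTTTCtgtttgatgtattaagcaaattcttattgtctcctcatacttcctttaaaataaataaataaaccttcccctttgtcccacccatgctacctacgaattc
Tlr6 window 2: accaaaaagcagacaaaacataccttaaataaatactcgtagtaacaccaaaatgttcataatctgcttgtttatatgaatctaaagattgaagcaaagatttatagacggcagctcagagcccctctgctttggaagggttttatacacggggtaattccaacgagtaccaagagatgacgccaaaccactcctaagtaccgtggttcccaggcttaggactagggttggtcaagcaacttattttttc
Tlr8: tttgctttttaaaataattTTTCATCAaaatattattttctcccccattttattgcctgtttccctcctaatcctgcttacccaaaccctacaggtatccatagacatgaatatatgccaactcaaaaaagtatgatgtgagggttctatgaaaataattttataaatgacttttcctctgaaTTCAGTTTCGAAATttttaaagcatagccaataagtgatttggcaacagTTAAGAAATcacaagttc
Tlr9: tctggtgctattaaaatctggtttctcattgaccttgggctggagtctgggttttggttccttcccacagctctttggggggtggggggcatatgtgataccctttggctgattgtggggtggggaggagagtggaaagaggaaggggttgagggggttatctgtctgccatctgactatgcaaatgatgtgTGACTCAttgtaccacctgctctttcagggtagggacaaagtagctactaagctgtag

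Tlr2 and Tlr3 each held the kappaB consensus. In Tlr2 a pair of overlapping matches began at positions -173 and -172 from the start, and a further one began at -8 and ran past it. In Tlr3 the match began at -211. Window 1 of Tlr6, inside the gene, held a pair of overlapping ISRE cores at -115 and -109 from its start on the opposite strand, and window 2, directly before the gene, held none of the motifs. Tlr8 held an ISRE core at -67 that overlapped a C/EBP motif at -62, a further C/EBP motif at -18 and the ATF4-CHOP core at -231. Tlr9 held an AP-1 motif at -58, and a PU.1 motif at position 11 after the start. Window 1 of Tlr1 held a PU.1 motif at -23, and window 2 held none of the motifs. A match describes the letters in the window and does not show binding.

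Transcript levels are given as CPM, a gene's counts per 1000000 of the TMM-scaled total of its library, and levels of different genes are compared only as CPM per kilobase of the exon length in the deposited table. In untreated WT cells Cd14 was highest, at 485 CPM per kb (range over the 5 mice 264 to 670), followed by Tlr2 at 142 CPM per kb (70.7 to 226). Both were separated from every other member in all 5 mice. Tlr3 was lowest, at 2.40 CPM per kb (2.12 to 2.57), below Ly96 at 6.86 CPM per kb (5.61 to 7.88) without overlap. Between these lay Tlr8 at 26.1, Tlr4 at 18.0, Tlr1 at 14.8, Tlr7 at 12.5, Tlr9 at 8.81 and Tlr6 at 7.81 CPM per kb, and each of these overlapped the next in the order, as Tlr6 did with Ly96. With the longest annotated transcript as the length instead, Cd14, Tlr2 and Tlr8 kept the top 3 places and Tlr3 the last, while Ly96 and Tlr7 moved up, to 17.8 and 39.1 CPM per kb.

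**Figure D1:**
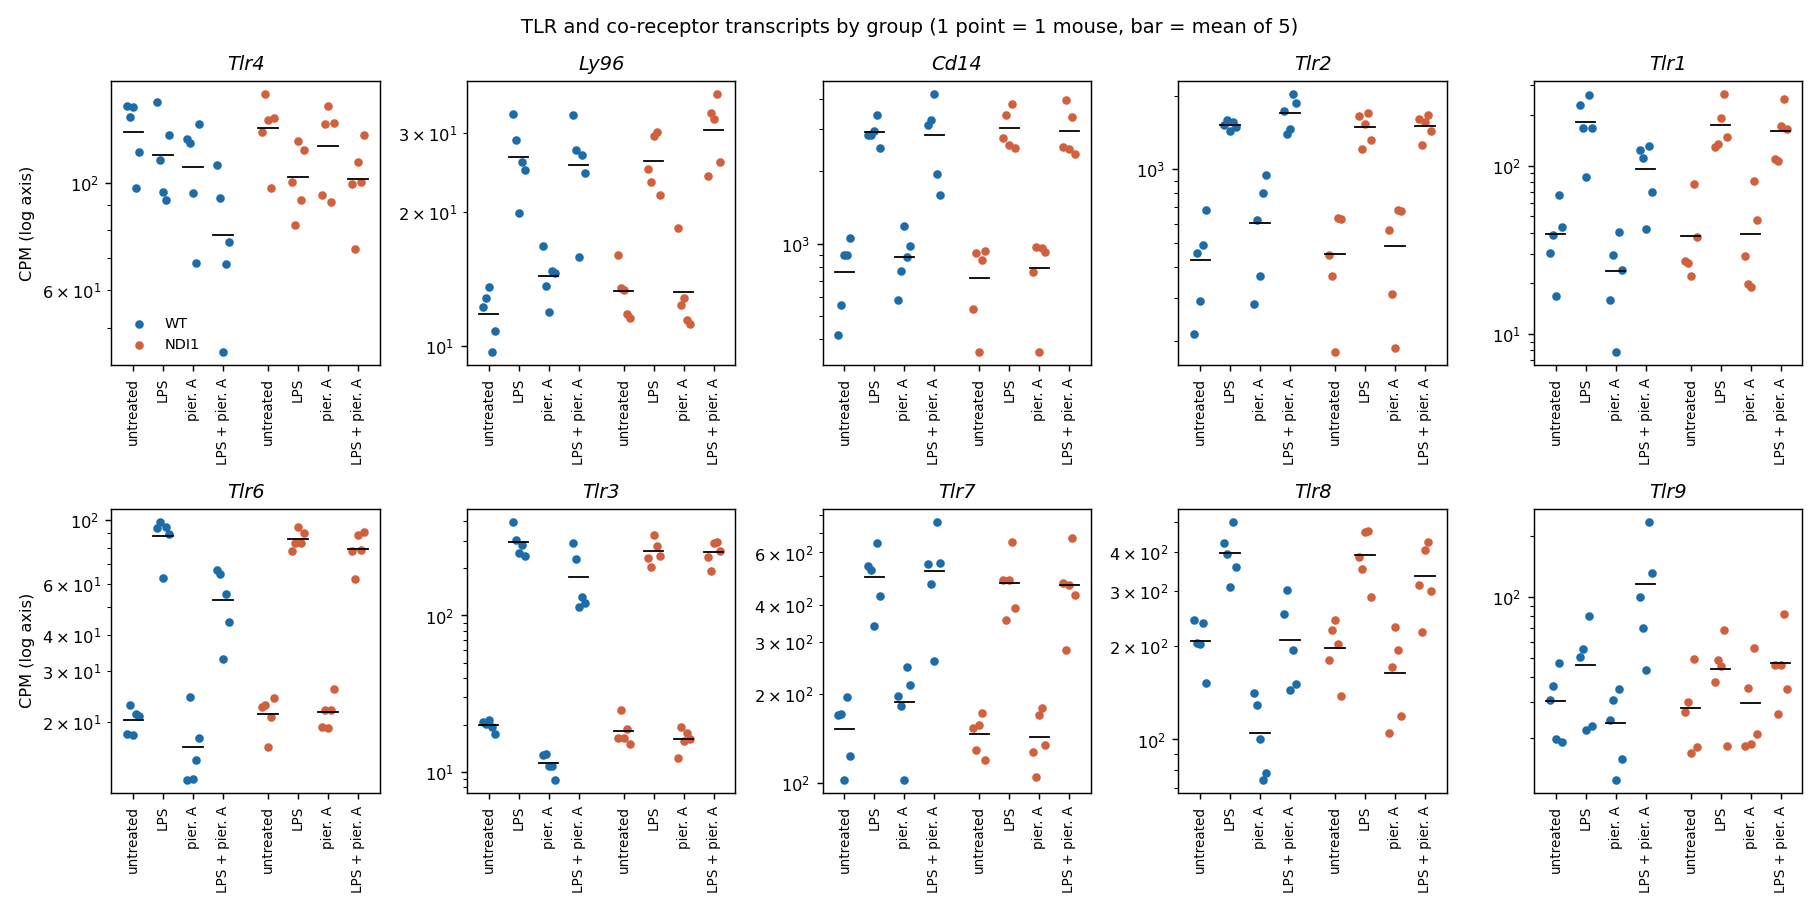
Levels of the 10 transcripts in CPM (log axis) in the 8 groups, with 1 point for each mouse (WT in blue, NDI1 in orange) and a bar at the mean of 5. The LPS groups lie above the untreated groups for 8 genes, and the WT group with LPS and piericidin A lies below the WT LPS group for Tlr8 and above it for Tlr9 in each of the 5 mice.

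LPS raised 8 of the 10 transcripts in WT cells and the same 8 in NDI1 cells: Tlr3, Tlr1, Tlr6, Cd14, Tlr2, Tlr7, Ly96 and Tlr8. A gene is called changed here at an adjusted p under 0.05 in edgeR's quasi-likelihood test with Benjamini-Hochberg adjustment over the 11853 genes. LPS changed 62.5% of all tested genes in WT and 62.7% in NDI1 cells, and raised 31.5% of them in each. The median log2 fold change of the members was 1.77 in WT and 1.70 in NDI1 cells, beside -0.01 for all tested genes in each. In bulk RNA a change in the share of a cell type and a change of RNA per cell cannot be told apart. Summed levels of the dendritic-cell, neutrophil, fibroblast and macrophage markers were higher with LPS too, in all 5 mice of each genotype. Those of 5 dendritic-cell markers went from 1.30 to 4.69 CPM (median 3.43) to 9.37 to 21.3 CPM (median 12.0) in WT cells and from 2.35 to 9.32 CPM to 6.55 to 25.97 CPM in NDI1 cells. The 5 neutrophil markers went from a median of 28.0 to 46.0 CPM in WT and from 39.9 to 59.6 CPM in NDI1 cells, and the 4 fibroblast markers from 3.24 to 6.94 CPM and from 2.86 to 9.59 CPM. The 8 macrophage markers went from a median of 23377 to 25939 CPM in WT and from 23897 to 27365 CPM in NDI1 cells. Mast-cell markers were lower in 3 WT and 4 NDI1 mice. B-cell markers were higher in 3 mice of each genotype, and T-cell markers in 4 WT and 2 NDI1 mice. Their part in the results was not tested.

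Tlr3, the sensor of double-stranded RNA, rose most. It stood at 20.9, 20.2, 21.3, 19.3 and 17.6 CPM in the untreated WT cells of mice 449, 452, 453, 496 and 520, and at 398, 306, 250, 282 and 240 CPM in the same mice with LPS. Every LPS value was more than 10 times every untreated value. The log2 fold change was 3.89 ± 0.22 (SE) in WT (adjusted p = 1.08e-17) and 3.81 ± 0.22 in NDI1 cells (adjusted p = 1.95e-17).

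Of the LPS receptor complex, both co-receptors rose and the receptor did not. Cd14 went from 415 to 1053 CPM in untreated WT cells (median 893) to 2511 to 3430 CPM with LPS (median 2838), a log2 fold change of 1.93 ± 0.28 in WT (adjusted p = 2.2e-07) and 2.08 ± 0.28 in NDI1 cells (adjusted p = 6.15e-08). Ly96, which encodes MD-2, went from 9.70 to 13.6 CPM (median 12.2) to 19.9 to 33.1 CPM (median 25.9), a log2 fold change of 1.16 ± 0.16 in WT (adjusted p = 7.78e-08) and 0.96 ± 0.16 in NDI1 cells (adjusted p = 2.39e-06). For both co-receptors the untreated and LPS groups did not overlap in WT cells.

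Tlr4 was at 97.4 to 144 CPM in untreated WT cells (median 137) and at 92.1 to 148 CPM with LPS (median 112), so the groups overlapped across almost their whole range. Its log2 fold change was -0.16 ± 0.19 in WT (adjusted p = 0.491) and -0.34 ± 0.19 in NDI1 cells (adjusted p = 0.123). With the mouse as a block the fall in NDI1 cells was called (-0.34, adjusted p = 0.028), as it was with only the compared libraries (-0.40, adjusted p = 0.0209), where 9 members were called beside 65.2% of the 10942 genes that fit tested. Scaling by library totals alone, which moved the median of all tested genes to -0.785 in WT and -0.774 in NDI1 cells, put Tlr4 at -0.95 and -1.11, both called, which is -0.16 and -0.34 relative to those medians.

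Among the lipopeptide receptors, Tlr2 went from 213 to 681 CPM (median 458) in untreated WT cells to 1431 to 1587 CPM (median 1522) with LPS. Its log2 fold change was 1.83 ± 0.32 in WT (adjusted p = 5.51e-06) and 1.71 ± 0.32 in NDI1 cells (adjusted p = 1.53e-05). Its partners also rose, Tlr1 by 2.22 ± 0.43 in WT and 2.19 ± 0.43 in NDI1 cells, and Tlr6 by 2.11 ± 0.17 and 2.00 ± 0.17 on the log2 scale, all called. Whether these genes differed from each other in their rise was not tested.

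Tlr7 and Tlr8, which are X-linked neighbours, both rose. The log2 fold change of Tlr7 was 1.70 ± 0.24 in both WT and NDI1 cells, and that of Tlr8 was 0.94 ± 0.22 in WT (adjusted p = 0.000403) and 0.99 ± 0.22 in NDI1 cells (adjusted p = 0.000223). Whether the 2 genes differed was not tested. With library totals alone Tlr8 was not called in either genotype (0.14 and 0.21, which is 0.93 and 0.98 above the medians of all genes), nor was Ly96 in NDI1 cells (0.19, which is 0.96 above). Tlr9, the CpG DNA sensor, was at 19.2 to 47.2 CPM (median 30.8) in untreated and 22.0 to 80.5 CPM (median 50.2) in LPS-treated WT cells, which overlap, and its log2 fold change was 0.59 ± 0.42 in WT (adjusted p = 0.219) and 0.63 ± 0.42 in NDI1 cells (adjusted p = 0.19). With the mouse as a block Tlr9 was called in both genotypes (0.53, adjusted p = 0.0387, and 0.64, adjusted p = 0.0135). That fit called 9 members in WT, beside 72% of all genes, and 10 in NDI1 cells, beside 72.4%. With library totals alone the sign of Tlr9 turned, to -0.22 and -0.14, which is 0.57 and 0.63 above the medians of all genes.

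**Figure D2:**
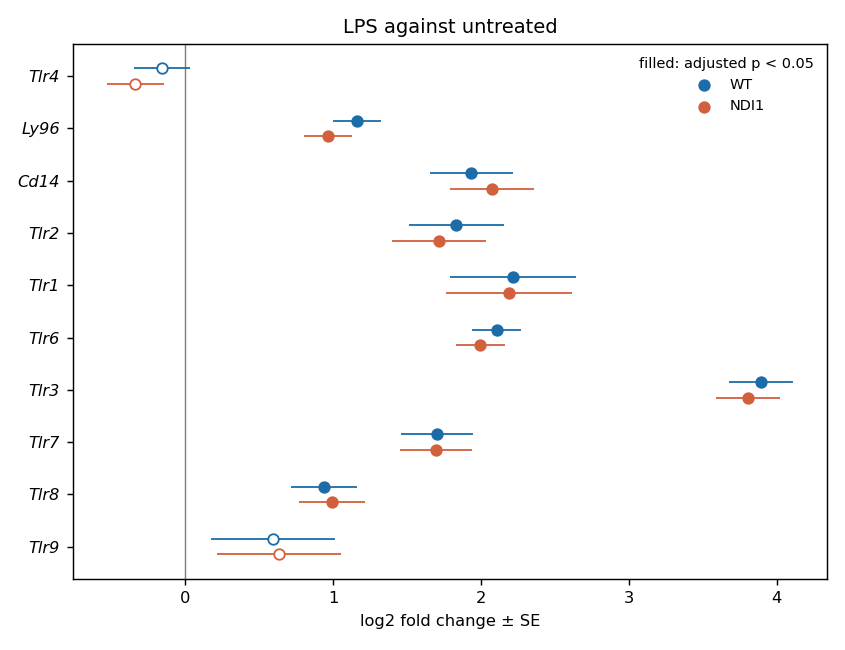
Log2 fold change of each transcript with LPS against untreated, in WT (blue) and NDI1 (orange) cells, with a bar of 1 SE and a filled point for an adjusted p under 0.05. Tlr3 lies near 3.9 in both genotypes, 7 further genes lie between 0.94 and 2.22, and Tlr4 and Tlr9 have open points.

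The LPS effect was not found to differ between genotypes for any member: 0 of 10 were called by edgeR and by DESeq2, beside 0% of all tested genes, of which 63 had an unadjusted p under 0.05. The differences of the log2 effect, NDI1 minus WT, ran from -0.20 ± 0.22 for Ly96 to 0.14 ± 0.38 for Cd14.

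In resting WT cells piericidin A lowered Tlr8 and Tlr3, so 2 of 10 members were called, beside 14.8% of all tested genes in either direction and 7.05% that were lower. Tlr8 was at 242, 204, 203, 237 and 152 CPM in untreated WT cells of mice 449, 452, 453, 496 and 520 and at 141, 129, 100.02, 74.1 and 78.1 CPM in the same mice with piericidin A. Each mouse fell and the groups did not overlap, with a log2 fold change of -0.99 ± 0.22 (adjusted p = 0.00238). Tlr3 went from 17.6 to 21.3 CPM (median 20.2) to 8.86 to 13.0 CPM (median 10.9), also without overlap and lower in all 5 mice, with a log2 fold change of -0.81 ± 0.20 (adjusted p = 0.00639). Both calls were kept when any single mouse was left out. The summed neutrophil markers were higher with piericidin A in all 5 of these mice (median 44.8 against 28.0 CPM), as were the mast-cell markers (5.33 against 2.37 CPM). In resting NDI1 cells, where no member was called, the neutrophil markers were higher in 4 of 5 mice (medians of 33.0 and 39.9 CPM with and without piericidin A) and the mast-cell markers in all 5 (2.85 and 2.60 CPM). Their part in the results was not tested.

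The remaining resting WT values did not pass the test. Tlr1 was lower in all 5 mice (log2 fold change -0.74 ± 0.42, adjusted p = 0.245), Tlr9 was lower in all 5 mice (-0.37 ± 0.42, adjusted p = 0.6) and Tlr2 was higher in all 5 mice (0.50 ± 0.31, adjusted p = 0.29). Comparing each mouse with itself, by adding the mouse as a block, called 5 members, beside 34.2% of all genes: Tlr8, Tlr3, Tlr1 (-0.77, adjusted p = 0.00275), Tlr6 (-0.33, adjusted p = 0.0453) and Tlr7, which was higher (0.28, adjusted p = 0.0352). Cd14, Ly96 and Tlr4 had log2 fold changes of 0.21 ± 0.27, 0.27 ± 0.16 and -0.24 ± 0.19.

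With LPS present, piericidin A lowered Tlr8, Tlr3, Tlr6 and Tlr4 and raised Tlr9 in WT cells. These were 5 of 10 members, beside 16.7% of all tested genes in either direction, and the 4 that were lower stand beside 8.92%. The median log2 fold change of the members was -0.30, beside -0.02 for all genes, and its median size without sign was 0.64 beside 0.27. The number of members called moved with the fit. With only the compared libraries 2 were called, Tlr8 and Tlr6, beside 8.57% of the 10396 genes that fit tested, and with the mouse as a block 6 were called, beside 34.5% of all genes.

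Tlr8 stood at 428, 395, 309, 500.1 and 359 CPM with LPS in WT mice 449, 452, 453, 496 and 520, and at 253, 302, 144, 194 and 151 CPM with LPS and piericidin A. All 5 mice fell and the groups did not overlap. The log2 fold change was -0.93 ± 0.22 (adjusted p = 0.00368), and the mean of 209 ± 68.1 CPM (SD, n = 5) with both agents stood beside 208 ± 35.9 CPM in untreated WT cells, a pair that was not compared by a test. Tlr6 went from 62.8 to 98.4 CPM (median 93.7) to 33.2 to 67.2 CPM (median 55.5), lower in all 5 mice with groups that overlapped only through mouse 453, and its log2 fold change was -0.72 ± 0.16 (adjusted p = 0.00184). The calls of Tlr8 and Tlr6 were kept when any single mouse was left out.

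Tlr3 went from 240 to 398 CPM (median 282) to 113 to 293 CPM (median 131), lower in all 5 mice, with a log2 fold change of -0.73 ± 0.19 (adjusted p = 0.00789). The groups overlapped, since mouse 449 still had 293 CPM with both agents, and the call was lost without mouse 496 (-0.66, adjusted p = 0.0556). Tlr4 went from 92.1 to 148 CPM (median 112) to 44.5 to 109 CPM (median 75.3), lower in all 5 mice, with a log2 fold change of -0.55 ± 0.19 (adjusted p = 0.0446). Leaving out any of 8 of the 10 mice ended the Tlr4 call, with adjusted p up to 0.171 and a log2 fold change between -0.63 and -0.46; those 8 were mice 447, 449, 452, 453, 461, 496, 520 and 521. It also ended with library totals alone (-0.51, adjusted p = 0.0734) and with no filter on low counts (-0.57, adjusted p = 0.0605). With only the compared libraries neither Tlr3 (-0.69, adjusted p = 0.0934) nor Tlr4 (-0.50, adjusted p = 0.12) was called, and with the mouse as a block Tlr4 was (-0.57, adjusted p = 0.00269).

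Tlr9 moved the other way. It stood at 50.2, 55.0, 22.0, 80.5 and 23.0 CPM with LPS in WT mice 449, 452, 453, 496 and 520, and at 99.2, 70.1, 43.2, 235 and 131 CPM with LPS and piericidin A. All 5 mice rose, by 0.35 to 2.50 on the log2 CPM scale, although the groups overlapped. The log2 fold change was 1.33 ± 0.42 (adjusted p = 0.0254), and the call was lost without mouse 449, 496 or 520, where the adjusted p was 0.0579, 0.0707 and 0.145 and the log2 fold change 1.41, 1.20 and 1.11. It was also lost with only the compared libraries (1.39, adjusted p = 0.0654). With the mouse as a block the log2 fold change was 1.32 (adjusted p = 4.38e-05). Marker genes of other cells moved in the same libraries. The summed neutrophil markers were higher with piericidin A in all 5 of these mice, at 59.9 to 1509 CPM (median 104) against 30.8 to 599.9 CPM (median 46.0) with LPS alone, and in 4 of 5 NDI1 mice, with medians of 76.7 and 59.6 CPM. The 3 B-cell markers were higher in 3 of 5 WT mice, at 0 to 11.6 CPM (median 1.47) against 0 to 5.49 CPM (median 0.681). The dendritic-cell markers were higher in 4 of 5, at 9.18 to 35.5 CPM (median 11.6) against 9.37 to 21.3 CPM (median 12.0). The fibroblast and the 3 mast-cell markers were higher in all 5, with medians of 9.29 against 6.94 CPM and 3.08 against 1.28 CPM. In NDI1 cells the B-cell and mast-cell markers were higher in 3 of 5 mice, the dendritic-cell markers in 4 and the fibroblast markers in 1. T-cell markers were lower in 3 WT mice and higher in 1, and higher in 4 NDI1 mice. The sum of the 8 macrophage markers was lower with piericidin A in 4 of 5 WT mice (median 24806 against 25939 CPM), and in 3 of 5 NDI1 mice (26359 against 27365 CPM). Their part in the results with piericidin A was not tested.

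Tlr1 was lower in all 5 WT mice but its level differed widely between mice, from 85.6 to 263 CPM with LPS and from 41.8 to 130 CPM with both agents. Its log2 fold change of -0.93 ± 0.41 did not pass the test (adjusted p = 0.115) and did so with the mouse as a block (-0.95, adjusted p = 0.000232). Tlr2, Tlr7, Cd14 and Ly96 had log2 fold changes of 0.16 ± 0.31, 0.07 ± 0.24, -0.04 ± 0.27 and -0.05 ± 0.16, with adjusted p from 0.77 to 0.937. For Cd14 the mice disagreed: 3 WT mice were higher and 2 were lower with piericidin A, from -0.81 to 0.51 on the log2 CPM scale.

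**Figure D3:**
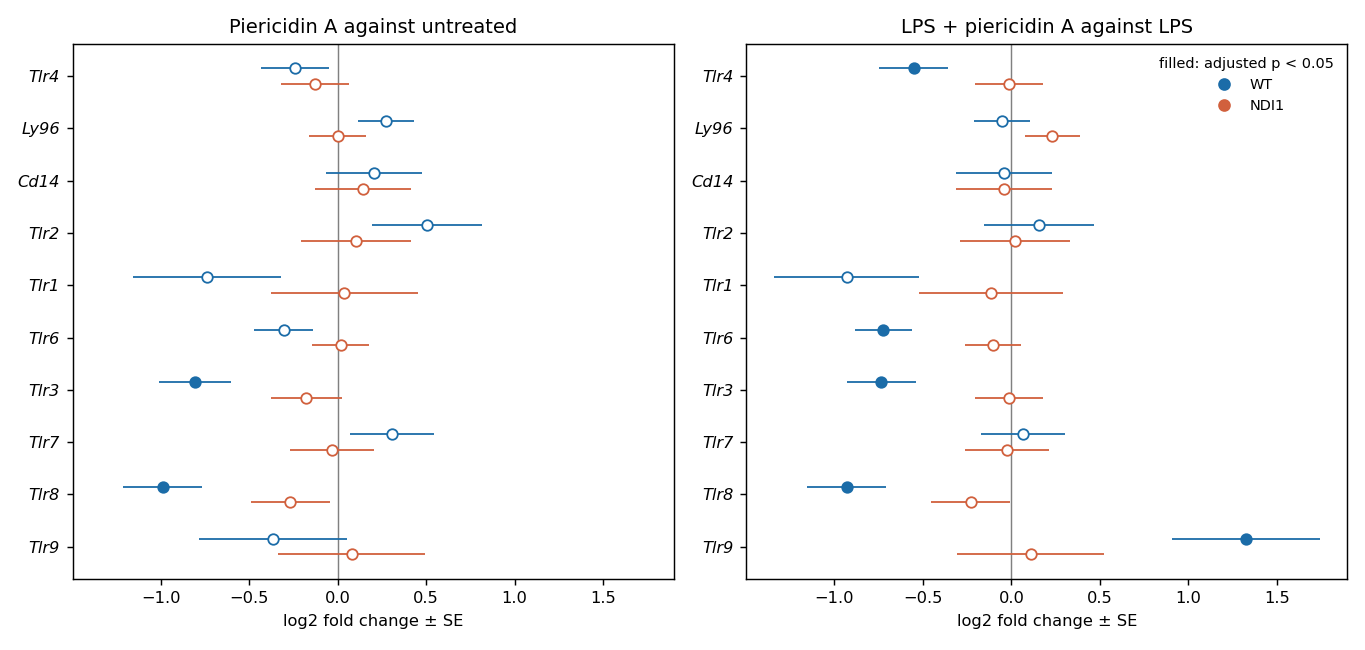
Log2 fold change of each transcript with piericidin A in resting cells (left) and in LPS-treated cells (right), in WT (blue) and NDI1 (orange), with a bar of 1 SE and a filled point for an adjusted p under 0.05. In WT the filled points are Tlr3 and Tlr8 at rest and Tlr3, Tlr4, Tlr6, Tlr8 and Tlr9 with LPS, and no NDI1 point is filled.

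For Tlr9 alone the effect of LPS itself came out larger in the presence of piericidin A in some fits. In WT cells the log2 LPS effect on Tlr9 was larger by 1.69 ± 0.59 with the inhibitor (adjusted p = 0.0919), with the mouse as a block by 1.71 (adjusted p = 0.000369), and with library totals alone by 1.90 (adjusted p = 0.0302; the median of all genes was 0.156 there). In the fit without a block 0 of 10 members were called for this change, beside 4.75% of all tested genes, of which 2173 had an unadjusted p under 0.05, and DESeq2 also called 0 members. The block fit called Tlr9 alone, beside 17.4% of all genes. For Tlr8 and Tlr3 the falls with and without LPS differed by 0.06 ± 0.31 and 0.07 ± 0.28. In NDI1 cells 0 members were called, beside 0% of all genes (78 with an unadjusted p under 0.05), and Tlr9 gave 0.03 ± 0.59. These comparisons share the LPS-treated libraries with those above.

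In NDI1 cells no member passed the test for piericidin A, at rest or with LPS. In each case 0 of 10 were called by edgeR and by DESeq2, beside 0% of all tested genes, of which 58 at rest and 127 with LPS had an unadjusted p under 0.05. Tlr8 was nonetheless lower in all 5 NDI1 mice at rest, by 0.06 to 0.78 on the log2 CPM scale, with a log2 fold change of -0.27 ± 0.22, and in 4 of 5 with LPS, with -0.23 ± 0.22. With LPS it stood at 385, 353, 463, 467 and 287 CPM in NDI1 mice 447, 460, 461, 503 and 521, and at 314, 221, 404, 429 and 299 CPM with both agents, so the 2 groups overlapped. Tlr3 had -0.18 ± 0.20 at rest and -0.02 ± 0.19 with LPS, and Tlr6 had -0.11 ± 0.16 with LPS. Tlr9 with LPS ranged from a fall of 0.88 to a rise of 0.92 on the log2 CPM scale between NDI1 mice, with a log2 fold change of 0.11 ± 0.42.

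The difference of the piericidin A effect between genotypes was tested directly. Without a block 0 of 10 members were called at rest, beside 1.27% of all tested genes, and 0 of 10 with LPS, beside 0.979%, by edgeR and by DESeq2. Of all tested genes 1331 and 1656 had an unadjusted p under 0.05. With the mouse as a block, 1 member was called at rest, beside 8.96% of all genes: for Tlr8 the effect in NDI1 cells lay 0.71 ± 0.21 above that in WT cells (adjusted p = 0.0322). With LPS that fit called 5 members, beside 9.51% of all genes: Tlr1 (0.81 ± 0.26, adjusted p = 0.0456), Tlr3 (0.78 ± 0.20, adjusted p = 0.0145), Tlr6 (0.63 ± 0.17, adjusted p = 0.0171), Tlr8 (0.74 ± 0.21, adjusted p = 0.0249) and Tlr9 (-1.19 ± 0.32, adjusted p = 0.0181). For these 5 genes every WT mouse moved in the direction of the WT mean, while among the NDI1 mice between 2 and 4 of 5 moved that way.

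**Figure D4:**
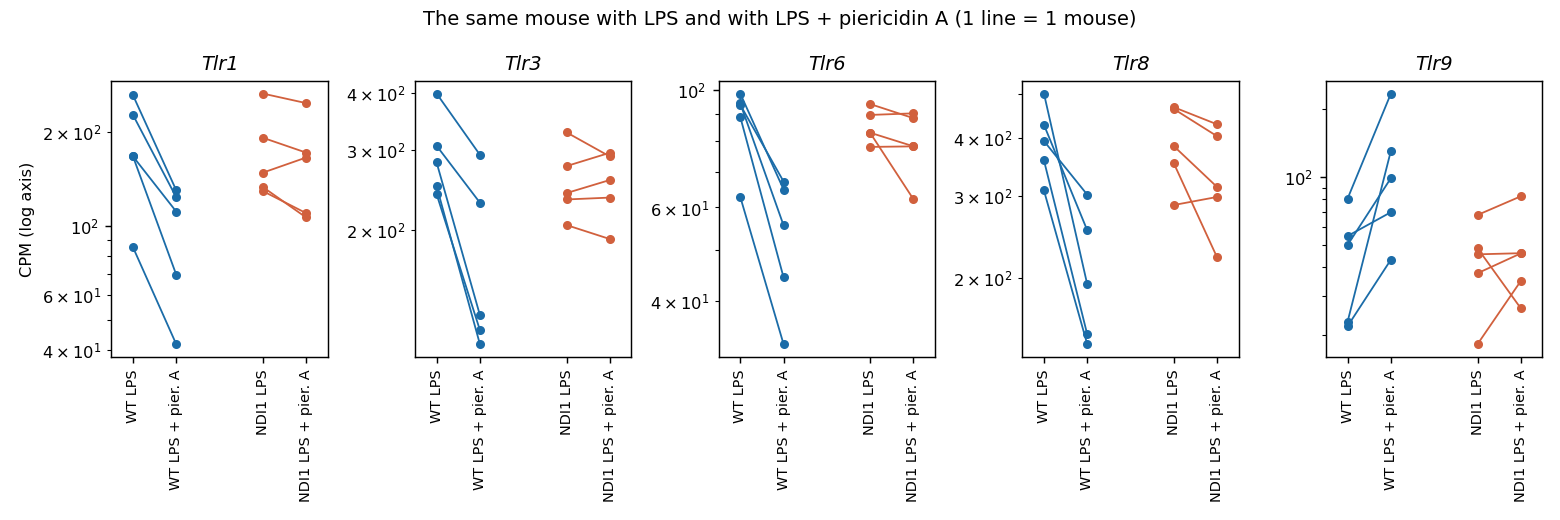
Levels in CPM (log axis) of Tlr1, Tlr3, Tlr6, Tlr8 and Tlr9 with LPS and with LPS and piericidin A, with a line for each mouse (WT in blue, NDI1 in orange). All 5 WT lines fall for Tlr1, Tlr3, Tlr6 and Tlr8 and rise for Tlr9, and the NDI1 lines run in mixed directions.

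NDI1 and WT cells were also compared under the same treatment. Untreated and with LPS alone, 0 of 10 members were called by edgeR and by DESeq2, beside 0% of all tested genes in each case (39 and 141 with an unadjusted p under 0.05), and the largest difference of a member, for Tlr3 with LPS, was -0.20 ± 0.19 on the log2 scale. With piericidin A alone, 0 members were called beside 7.8% of all genes (2620 with an unadjusted p under 0.05). DESeq2 called Tlr8 there (0.66, adjusted p = 0.0359, beside 0.65 and 0.0668 in edgeR). Leaving out mouse 447, 449, 452 or 521 also brought Tlr8 under the threshold (adjusted p from 0.0388), and leaving out mouse 452 did so for Tlr6 (0.59, adjusted p = 0.0151).

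With LPS and piericidin A, 3 of 10 members differed between the genotypes, beside 12% of all tested genes. Tlr6 was higher in NDI1 cells, at 62.2 to 90.3 CPM (median 78.2) against 33.2 to 67.2 CPM in WT cells (log2 difference 0.58 ± 0.16, adjusted p = 0.0141). Tlr8 was higher, at 221 to 429 CPM (median 314) against 144 to 302 CPM (0.68 ± 0.22, adjusted p = 0.0408). Tlr9 was lower, at 26.3 to 82.4 CPM (median 46.1) against 43.2 to 235 CPM (-1.30 ± 0.42, adjusted p = 0.0359).

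The groups overlapped for all 3 genes, and the calls depended on the fit and on single mice. With only the compared libraries 0 of 10 members were called, beside 3.83% of the 10387 genes that fit tested: Tlr6 stood at 0.55 (adjusted p = 0.0851), Tlr8 at 0.64 (adjusted p = 0.105) and Tlr9 at -1.35 (adjusted p = 0.0729). Leaving out mouse 520 ended the Tlr6 call (adjusted p = 0.0688), and leaving out 447, 453, 461, 496, 503 or 520 ended that of Tlr8 (adjusted p up to 0.128). The Tlr9 call ended without mouse 447, 449, 460, 461, 496, 520 or 521 (adjusted p up to 0.161; -0.88 without mouse 496), and with a term for sex (-1.19, adjusted p = 0.0571). Tlr3 reached 0.52 ± 0.19 (adjusted p = 0.0727), and was called without mouse 449, 452 or 460 (0.78, 0.63 and 0.61). No block for mouse is possible between genotypes, since each mouse has 1 genotype.

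Several members differed between mice in a way that was shared by all 4 treatments. Mouse 496 (WT) had the highest Tlr1, Tlr7 and Tlr9 of the 5 WT mice under all 4 treatments, and mouse 503 (NDI1) had the highest Tlr1, Tlr2, Tlr7 and Tlr9 of the 5 NDI1 mice under all 4 treatments. Untreated, Tlr1 was at 67.0 CPM in mouse 496 and 77.7 CPM in mouse 503, against 16.8 to 42.9 and 22.0 to 37.5 CPM in the other mice of their genotype, and Tlr9 was at 47.2 and 49.0 CPM against 19.2 to 36.1 and 16.8 to 30.2 CPM. The same mice stood apart from the rest of their genotype on the second principal component of all tested genes, which held 7.32% of the variance.

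Marker genes of other cells also differed in these mice. The summed level of 5 neutrophil markers was 260.5 to 1509 CPM in mouse 496 and 262 to 524 CPM in mouse 503, against at most 106 and 93.6 CPM in the other mice of their genotype. Of these, S100a8 reached 451 CPM and S100a9 1037 CPM, while Ly6g was at 0 in 28 of 40 libraries. In mouse 496 the 3 B-cell markers summed to 0.636 to 11.6 CPM, against at most 2.00 CPM in the other WT mice. In mouse 503 they summed to 3.94 to 9.77 CPM, against at most 1.05 CPM in the other NDI1 mice. The 5 dendritic-cell markers summed to 4.69 to 35.5 and 9.32 to 26.4 CPM, against at most 15.8 and 12.7 CPM. The 4 fibroblast markers summed to 31.4 to 110 and 10.8 to 27.0 CPM, against at most 22.7 and 17.4 CPM. The B-cell sums of mouse 496, the fibroblast sums of mouse 503 and the dendritic-cell sums of both overlapped those of the others. T-cell markers summed to at most 0.549 and 0.448 CPM, against 1.44 and 1.05 CPM in the others, mast-cell markers to at most 11.3 and 4.98 CPM against 6.90 and 5.06 CPM, and the macrophage sums lay within the range of the others. Their part in the levels of Tlr1, Tlr7 and Tlr9 was not tested. Without both mice, a setting chosen after seeing the data, Tlr9 was still higher with piericidin A in LPS-treated WT cells (1.20, adjusted p = 0.0299) and Tlr8 (-0.81, adjusted p = 0.0385) and Tlr6 (-0.71, adjusted p = 0.0235) were still lower, while Tlr3 (-0.66, adjusted p = 0.0658) and Tlr4 (-0.57, adjusted p = 0.0632) were not called. At rest Tlr8 (-0.84, adjusted p = 0.033) and Tlr3 (-0.80, adjusted p = 0.0354) were called without them. Between genotypes with both agents, Tlr9 (-1.16, adjusted p = 0.0464) was called without them, and Tlr6 (0.61, adjusted p = 0.0681) and Tlr8 (0.55, adjusted p = 0.205) were not.

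Over the 40 libraries, which share mice and treatments, the members' log2 CPM values correlated most for Tlr3 and Tlr6 (Pearson r = 0.971), and Tlr4 was the member least like the rest, with r between -0.497 for Tlr2 and 0.105 for Tlr8. Over all tested genes, the pattern of Tlr3 was most like those of Etnk1 (r = 0.995), Arel1 and Ikzf1, that of Tlr2 like those of Clec4e (0.977), Acod1 and Fas, and that of Tlr1 like those of Cp (0.974), Zeb2os and Cyfip1. Tlr6 was most like Rnf14 (0.982), Sgk3 and Fnbp1l, Cd14 like Ehd1 (0.971), Mvp and Nfkb2, and Ly96 like Gm37787 (0.941), Mob3c and Wbp4. Tlr7 was most like Slc23a2 (0.973), Rbms1 and Baz1a, and Tlr8 like Kdm3b (0.954), Atp8b2 and Zfp710. The highest values for Tlr9 and Tlr4 were lower: C5ar1 (0.931), Tspan33 and Trak1 for Tlr9, and Rb1cc1 (0.866), Nabp1 and Trim23 for Tlr4. By Spearman's rho in place of Pearson's r the 3 nearest genes of Tlr3 were Synj1 (0.963), Irgm2 and Tmem229b, and those of Tlr2 were Tnf (0.970), Phldb1 and Slc25a37, so none was shared, while C5ar1 (0.917) stayed nearest to Tlr9 and Ehd1 (0.921) to Cd14. These values describe likeness over libraries in which LPS moves many genes at once.

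The other genes of the pathway were taken as 7 lists with 50 tested genes. LPS changed 38 of them in WT and 37 in NDI1 cells, piericidin A changed 11 in resting and 13 in LPS-treated WT cells, and in NDI1 cells it changed 0. The shares of all tested genes to set beside these are the 62.5%, 62.7%, 14.8%, 16.7% and 0% given above. By direction, LPS lowered 31% of all genes in WT and 31.2% in NDI1 cells, beside the 31.5% that it raised, and piericidin A raised 7.79% in resting and 7.81% in LPS-treated WT cells. With the mouse as a block, which called 34.2% and 34.5% of all genes for piericidin A in WT cells, 21 and 26 of the 50 were called, among them all of the 11 and 13. For LPS the block called 41 of the 50 in WT and 40 in NDI1 cells, beside 72% and 72.4% of all genes, with 30 and 29 higher and 11 lower in each.

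Of the remaining TLR genes, Tlr13, an endosomal sensor of bacterial ribosomal RNA, was well expressed and fell with LPS, from 262 ± 69.2 CPM to 98.9 ± 13.5 CPM (SD, n = 5) in WT cells (log2 fold change -1.41, adjusted p = 4e-08), and by 1.34 in NDI1 cells. That direction was opposite to that of the other endosomal receptors called with LPS. Piericidin A left it at -0.14 at rest and 0.17 with LPS, neither called. Tlr11 had at most 15 counts and Tlr5, the flagellin receptor, at most 18 counts in any library. Tlr11 was called higher with LPS (log2 fold change 2.35 in WT), and Tlr5 was called higher with piericidin A in LPS-treated WT cells (2.21, adjusted p = 0.0217, from 0.207 to 1.05 CPM) and lower in NDI1 than in WT cells under both agents. Tlr5 was also called lower with LPS, in NDI1 cells in both fits (with the block -3.15, adjusted p = 0.00135). In WT cells only the block called that fall (-1.49, adjusted p = 0.0243). The calls of Tlr11 and Tlr5 rest on few counts. Tlr12 did not pass the filter.

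Among 7 accessory receptors, LPS raised 4 in WT and 5 in NDI1 cells (5 in each with the block) and piericidin A changed none in WT cells in the fit without a block. With the block, Cd36 (0.21, adjusted p = 0.0292) and Cd180 (-0.32, adjusted p = 0.0421) were called at rest and Msr1 (-0.66, adjusted p = 0.000299) with LPS. Cd36, a scavenger receptor that works with TLR2 and TLR6, and Itgb2, the integrin beta chain of CR3, had the highest mean log2 CPM of the list, a measure that does not rank genes per length. Cd36 was at 776 CPM untreated and 794 CPM with LPS in WT cells, and Itgb2 rose by 0.33 on the log2 scale (adjusted p = 0.000158). Of 7 trafficking partners, which bring TLRs to their compartments or act beside them there, LPS raised 2 and lowered 3 in each genotype, and with the block raised 3. Slc15a3, an endolysosomal transporter, rose by 2.28 on the log2 scale in WT cells, and Unc93b1, the chaperone of the endosomal TLRs, had 0.38 in WT (adjusted p = 0.0849) and 0.39 in NDI1 cells (adjusted p = 0.0772), and was called with the block in both (0.37, adjusted p = 6.06e-06, and 0.40, adjusted p = 1.98e-06). With LPS present, piericidin A lowered Slc15a4 (-0.50, adjusted p = 0.00121) and its partner Tasl (-0.77, adjusted p = 0.0254) in WT cells, genes that link endosomal TLRs to IRF5. Slc15a3 and Slc15a4 overlap other genes in their exons and are less certain.

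All 5 tested TIR-domain adaptors and adaptor-like genes rose with LPS in both genotypes, led by Myd88 (2.83 in WT, adjusted p = 3.05e-18) and Pik3ap1 (1.99), which encodes BCAP. Sarm1 did not pass the filter. In WT cells with LPS, piericidin A lowered Myd88 (-0.54, adjusted p = 0.0073), from 612 ± 93.1 to 421 ± 57.3 CPM (SD, n = 5), and Tirap (-0.84, adjusted p = 0.00176), which encodes the bridging adaptor of TLR2 and TLR4. At rest it lowered Tirap (-0.63, adjusted p = 0.0173) and raised Ticam1 (0.80, adjusted p = 0.000554), which encodes TRIF. Myd88 overlaps Acaa1a, and Tirap overlaps Srpr, on the opposite strand. In NDI1 cells the adaptors had log2 fold changes with piericidin A that were not called, such as -0.01 for Myd88 with LPS.

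Of 16 kinases and ligases that act below the adaptors, LPS raised 8 and lowered 5 in WT cells and raised 7 and lowered 3 in NDI1 cells; the number lowered in WT cells is near the share over all genes. With the block 5 were lowered in NDI1 cells too, since Irak1 (-0.19, adjusted p = 0.0288) and Traf3 (-0.47, adjusted p = 0.014) were then called, and no listed gene was called for a difference of the LPS effect between genotypes in either fit. Tab2 (1.95) and Peli1 (3.55), named for their mean log2 CPM without regard to length, both rose. At rest, piericidin A raised 4 in WT cells: Peli1 (0.94, adjusted p = 0.00485) and Traf3 (0.79, adjusted p = 0.0119), both ubiquitin ligases, Irak2 (0.85, adjusted p = 8.34e-05), a kinase-like relay of MyD88, and Traf6 (0.44, adjusted p = 0.00876). It lowered Irak4 (-0.40, adjusted p = 0.00485), the first kinase of the complex. The rise of Irak2 was smaller in NDI1 cells by 0.80 (adjusted p = 0.038), and without the block no other gene of these lists was called for this difference, at rest or with LPS. With the block 9 of the 50 listed genes were called at rest, beside 8.96% of all genes, and 9 with LPS, beside 9.51%. At rest they included Irak2 (-0.79, adjusted p = 0.00184), Tollip (-0.55, adjusted p = 0.00312) and Tnfaip3 (-1.24, adjusted p = 0.00435), and with LPS Tasl (0.75, adjusted p = 0.00141), Traf3 (-1.11, adjusted p = 0.00416) and Trafd1 (0.52, adjusted p = 0.00563), each the effect in NDI1 minus that in WT cells. With LPS present it raised Traf3 (1.17, adjusted p = 0.000462), Peli2 (0.77, adjusted p = 0.00243) and Traf6 (0.36, adjusted p = 0.0286) and lowered none. With the block 4 of the 16 were higher and 5 lower: Ripk1 (0.25) was added to those higher, and Irak2 (-0.37), Tab2 (-0.27), Ube2n (-0.32), Tbk1 (-0.31) and Ikbke (-0.55) were lower, with adjusted p from 0.000396 for Tbk1 to 0.0318 for Ripk1. At rest the block called 4 higher and 3 lower.

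Of 8 negative regulators, LPS raised 5 and lowered 1 in each genotype, and Tnfaip3, which encodes the deubiquitinase A20, rose by 4.88 in WT cells and its partner Tnip1 by 2.56, both on the log2 scale. Piericidin A raised Tnfaip3 (1.43, adjusted p = 0.000236), Tollip (0.65, adjusted p = 5.99e-05) and Tnip1 (0.63, adjusted p = 0.0208) in resting WT cells. With LPS it lowered Irak3 (-1.07, adjusted p = 0.00825), the kinase-dead inhibitor IRAK-M, Trafd1 (-0.56, adjusted p = 0.00396) and Cyld (-0.37, adjusted p = 0.0265) and raised Tollip (0.34, adjusted p = 0.0288). Of 4 IRF genes, LPS raised Irf5 (1.67), Irf7 (3.30) and Irf8 (1.02) in WT cells. Piericidin A lowered Irf3 at rest (-0.37, adjusted p = 0.0461) and raised Irf8 with LPS (1.16, adjusted p = 0.00368), from 417 ± 168 to 931 ± 512 CPM (SD, n = 5). With the block and LPS, Irf3 (-0.38, adjusted p = 0.0154) and Irf7 (-0.53, adjusted p = 0.0223) were also called lower and Irf5 (0.17, adjusted p = 0.0248) higher. The block also called Tnip1 (-0.49, adjusted p = 0.013), Pik3ap1 (-0.48, adjusted p = 0.00029) and Cnpy3 (0.33, adjusted p = 0.00292) with LPS. Cd180, Irak1, Irak2, Irak4, Irak3, Ikbke, Ripk1, Trafd1, Irf3, Irf5, Irf7 and Peli2 overlap other genes in their exons and are less certain.

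**Figure D5:**
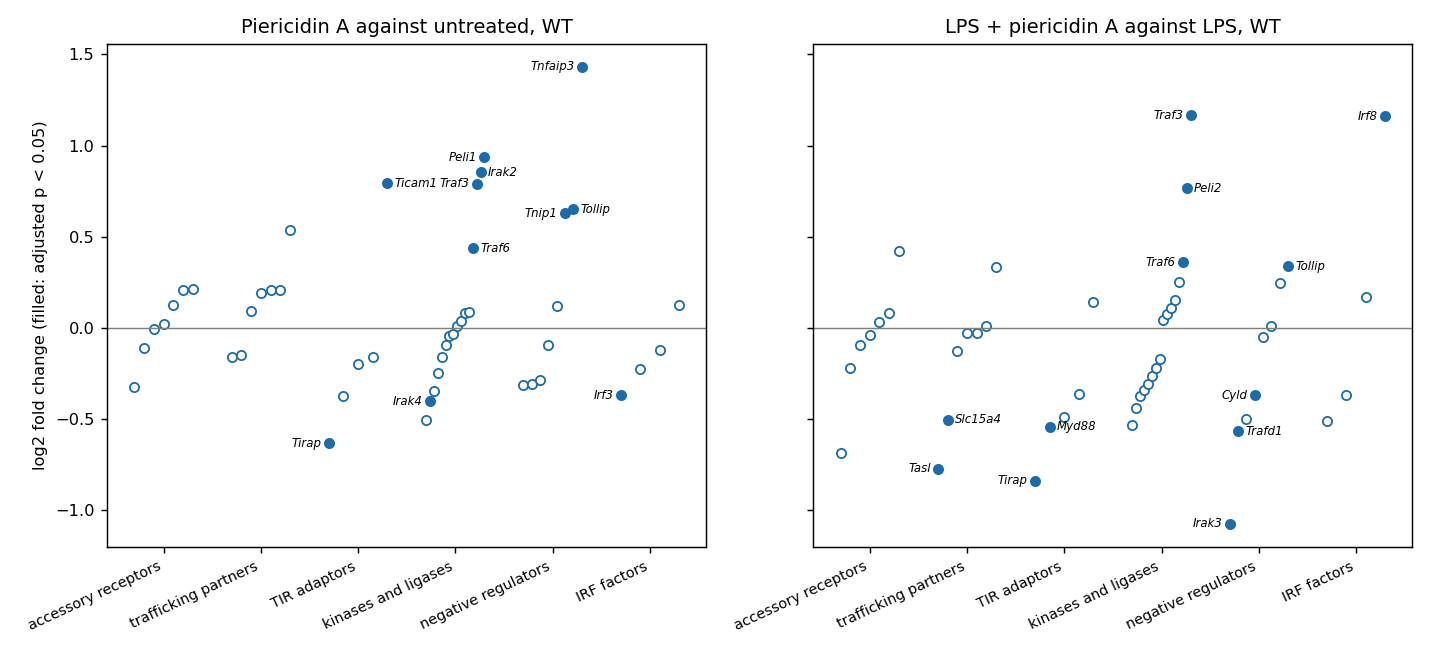
Log2 fold change with piericidin A in resting (left) and LPS-treated (right) WT cells for the genes of 6 pathway lists, with 1 point for each gene and filled, named points for an adjusted p under 0.05. The lists of kinases and ligases and of negative regulators hold calls in both directions, and no accessory receptor is filled.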

How the data were processed

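RNA-seq was performed on 40 BMDM libraries of 10 mice, and the authors deposited 1 table of raw counts per gene. Per the study's methods, reads were converted with bcl2fastq, trimmed with Trimmomatic, aligned to mm10 with STAR and counted over exons with HTSeq. Neither the gene annotation's release nor its strand setting was given in the sources used here. Of the table, 1 column of reads assigned to no sample was not used. The table holds 43430 genes, 42462 of them with a symbol. Exon overlaps were read from a GENCODE annotation of the same build, which may not be the release used for counting. The length of treatment with piericidin A alone was not given in the sources used here.

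Counts were analysed with edgeR 4.0.16 in R 4.3.3. Genes were kept by filterByExpr over the 8 groups (11853 genes), libraries were scaled by TMM, and the quasi-likelihood test was run on 1 mean per group for 15 comparisons, with Benjamini-Hochberg adjustment over all tested genes and a threshold of 0.05. CPM were computed from counts and TMM-scaled totals, log2 CPM with a prior count of 2. Several comparisons share control libraries, so they are not independent. Depth was 6950748 to 13552070 counts per library, and the 5 mice of a genotype are its replicates.

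The same number in the 4 treatments is the same mouse. Deviations from the group means correlated at a mean r of 0.453 (0.0995 to 0.769) over 60 pairs of libraries of the same mouse, against -0.107 over 240 pairs of different mice, so a fit with the mouse as a block was made. Other alternatives were DESeq2 1.42.0, RLE factors, library totals alone, 2 other filters, only the compared libraries, a term for sex as read from sex-linked transcripts, each mouse left out in turn and, chosen after seeing the data, mice 496 and 503 left out together.

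The members, pathway lists and tests were chosen with earlier results of these data known. Named genes were the 10 members, the 2 genes of highest mean log2 CPM in each list, every listed gene called for piericidin A in WT cells or for its difference between genotypes, and the 3 genes most correlated with each member. Other genes are named as markers or as overlapping a named gene, and listed genes called only with the block are named because of their values. Start-site windows came from RefSeq (GRCm38.p6). The edgeR fits with and without the block were tested on simulated data for piericidin A in LPS-treated WT cells. The simulated data held no differences between mice, so they cannot decide between these fits. Figures were drawn with matplotlib 3.10.9 in Python 3.11.15.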

Additional observations from a re-analysis of the deposited data

Results flagged for a closer look

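Dixon's test at the 95% level was applied to each of 80 groups of 5 mice, of which chance flags about 1 in 20, and 3 values stood apart. Tlr6 was at 62.8 CPM in WT mouse 453 with LPS, against 88.9 to 98.4 CPM in the other 4. Cd14 was at 353 CPM in NDI1 mouse 461 with piericidin A, against 762 to 968 CPM. Ly96 was at 18.4 CPM in NDI1 mouse 447 with piericidin A, against 11.2 to 12.8 CPM.

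With the mouse as a block, edgeR found a difference of the piericidin A effect between NDI1 and WT cells for Tlr8 at rest (0.71 on the log2 scale). With LPS it found one for Tlr1 (0.81), Tlr3 (0.78), Tlr8 (0.74), Tlr6 (0.63) and Tlr9 (-1.19), each the effect in NDI1 minus that in WT cells. Without the block none of these passed the threshold. Of the listed pathway genes, Irak2 differed at rest without the block (-0.80) and with it (-0.79). With the block Tnfaip3 (-1.24), Traf3 (-0.80), Peli1 (-0.72), Ticam1 (-0.68), Tirap (0.60), Tollip (-0.55), Traf6 (-0.51) and Irak4 (0.32) differed at rest. With LPS, Traf3 (-1.11), Irf8 (-0.89), Tirap (0.82), Tasl (0.75), Irak3 (0.75), Msr1 (0.60), Trafd1 (0.52), Myd88 (0.51) and Tbk1 (0.29) did.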

How the results depend on the processing

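The mouse as a block moved the number of members called from 2 to 5 for piericidin A in resting WT cells, from 0 to 1 for its difference between genotypes at rest, from 0 to 5 for that difference with LPS, and from 0 to 1 for the change of the LPS effect in WT cells; beside these and the LPS calls of Tlr9 and Tlr4 and the call of Tlr1 with LPS given above, the block changed no other call of a member. For piericidin A with LPS in WT cells, 5 members were called, 4 with library totals alone and with no filter, 2 with only the compared libraries, 3 without mice 496 and 503, and 2 to 5 without 1 mouse. For NDI1 against WT with piericidin A, 0 were called, 1 by DESeq2, 3 with library totals alone and 0 to 2 without 1 mouse. For NDI1 against WT with both agents, 3 were called, 0 with only the compared libraries, 1 without mice 496 and 503, and 0 to 4 without 1 mouse. For the change of the LPS effect in WT cells, 1 was called with library totals alone. For piericidin A in resting WT cells, library totals alone also called Tlr6 (-0.43, adjusted p = 0.0374, which is -0.30 relative to the median of all genes). The cause was not tested. Of 150 fold changes of members, RLE factors and the filter of 10 counts in every library changed no call or direction of a called value.

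Over all genes, calls for piericidin A in resting WT cells went from 1759 to 4049 with the block, 909 without both mice and 788 to 1800 without 1 mouse. With LPS in WT cells they went from 1983 to 4090 with the block, 891 with only the compared libraries, 956 without both mice and 841 to 2023 without 1 mouse. The difference between genotypes at rest went from 150 to 294 (DESeq2), 1062 (block), 73 (without both mice) and 63 to 200 (without 1 mouse). With LPS it went from 116 to 231 (DESeq2), 72 (no filter), 1127 (block), 49 (only the compared libraries), 18 (without both mice) and 27 to 255 (without 1 mouse). The change of the LPS effect in WT cells went from 563 to 2066 (block), 354 (only the compared libraries), 187 (without both mice) and 163 to 596 (without 1 mouse). NDI1 against WT went from 924 to 1390 (library totals), 477 (only the compared libraries), 458 (without both mice) and 587 to 1115 (without 1 mouse) with piericidin A, and from 1421 to 398 (only the compared libraries), 574 (without both mice) and 746 to 1792 (without 1 mouse) with both agents. Library totals alone moved the median of all genes by -0.128 for piericidin A in resting WT cells. Tlr1 and Tlr9 differed most between mice, and their effects without the block have the widest errors among the members.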

Other observations

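Tlr7 and Tlr8 are X-linked, and sex was not in the labels. By sex-linked transcripts, 2 WT mice and 1 NDI1 mouse carried Y-linked transcripts. Untreated Tlr8 was at 237 and 242 CPM in the 2 WT mice with Y-linked transcripts and at 152 to 204 CPM in the 3 with Xist, while in NDI1 cells the mouse with Y-linked transcripts had 138 CPM and the 4 with Xist had 180.0 to 241 CPM. With LPS the values of these mice also lay above those of the rest in WT cells (428 and 500.1 against 309 to 395 CPM) and below them in NDI1 cells (287 against 353 to 467 CPM). With piericidin A they overlapped in WT cells (74.1 and 141 against 78.1 to 129 CPM) and lay within the range of the rest in NDI1 cells (119 against 105 to 230 CPM), and with both agents they lay within it in each genotype. Untreated Tlr7 was at 169.6 and 195.5 CPM against 102.4 to 170.3 CPM in WT cells, which overlapped. It was at 119 CPM against 129 to 172 CPM in NDI1 cells. The 2 WT mice with Y-linked transcripts were 449 and 496. Mouse 496 had the highest Tlr7 of the WT mice under all 4 treatments and also stood apart by its neutrophil markers. These values were not tested.

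By CPM per kilobase, Tlr3 moved from the last place among the members in untreated WT cells to the sixth with LPS, at 35.6 CPM per kb, and Tlr9 took the last place, at 13.3 CPM per kb. With LPS the range of Tlr3 (29.0 to 48.1) overlapped those of Tlr7 (27.9 to 53.2) and Tlr6 (24.1 to 37.8), and that of Tlr9 overlapped Ly96. With the longest transcript as the length Tlr3 took rank 5 and Tlr9 stayed last. Piericidin A changed the LPS effect itself for several pathway genes in WT cells. The rise with LPS was smaller for Tnfaip3 (a difference of -1.42, adjusted p = 0.0173, edgeR), Irak2 (-1.23, adjusted p = 0.000221) and Tnip1 (-1.13, adjusted p = 0.00909). It was larger for Irf8 (1.39, adjusted p = 0.031). Peli2 (1.01, adjusted p = 0.00868) and Irak4 (0.48, adjusted p = 0.0417), which LPS lowered, fell less with piericidin A. Of the 50 listed genes 6 were called for this change, beside 4.75% of all genes, and 16 with the mouse as a block, beside 17.4%.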
